A study of Homo sapiens with 4 samples.

Results

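The S100 genes encode small calcium-binding proteins that work as dimers, and 10 of them were followed here across 4 RNA sequencing libraries of PK-1 cells, an established line of human pancreatic cancer. They are S100A2, S100A4, S100A6, S100A8, S100A9, S100A10, S100A11, S100A14, S100A16 and S100P, chosen by gene symbol, and each had 1 row among the 53826 entities listed in every library. PK-1 cells were made to express SPRR1A, a precursor of the cornified envelope of squamous epithelium, to ask which other genes changed. Stable SPRR1A cells carried SPRR1A with a FLAG tag in the retroviral vector pMXs, and their control, stable DsRed, carried the red fluorescent protein DsRed in the same vector. Transient SPRR1A cells were transfected with a plasmid (pCAG) for SPRR1A with a FLAG tag, their control, transient GFP, with the plasmid for green fluorescent protein, and RNA was taken after 48 h. Each condition was sequenced as 1 library, so that no difference below has a replicate check, an error or a p-value. The stable and the transient cells differ at the same time in vector, way of delivery and control protein, and these cannot be told apart. All libraries come from a single line, and more transfected cells and more RNA per cell cannot be told apart either.

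S100 proteins carry calcium-binding loops of the EF-hand type, and on binding calcium most of them expose a surface for a target protein. Inside the cell they act on annexins, cytoskeletal proteins and enzymes, and some are secreted and act through receptors such as AGER (RAGE) and TLR4. In the pancreas several are known for higher levels in ductal adenocarcinoma than in normal ducts. S100A8 and S100A9 form calprotectin, which is abundant in neutrophils and also made by inflamed or squamous epithelium. Because levels are given as TPM (reads per transcript length, scaled to 1000000 per library), genes can be compared with each other. The deposited values are log2 TPM. They do not go below 0, so a 0 means that the TPM was at most 1, and the depth in reads is unknown.

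SPRR1A itself was at 10.93 log2 TPM with SPRR1A and 0.75 with DsRed in stable cells, and at 16.60 with SPRR1A and 3.56 with GFP in transient cells. It was higher in each SPRR1A library than in its control. Between 12964 and 13558 entities per library were above the floor. In transient SPRR1A cells, SPRR1A alone took 9.90% of all TPM, and the median log2 difference of well expressed entities, those at 5 TPM or more in each library compared, was -0.18 between transient SPRR1A and transient GFP cells. The epithelial identity of the line was checked with 6 ductal markers (EPCAM, CDH1, KRT7, KRT8, KRT18 and KRT19), which were all above 0 in all libraries. Their summed TPM was 18253 to 26470.2, lower in the transient than in the stable libraries. CDH1 alone went the other way, at 7.26 log2 TPM with SPRR1A and 7.03 with DsRed in stable cells. In transient cells it was at 7.51 with SPRR1A and 7.75 with GFP. Of 6 myeloid markers, PTPRC, CD14, ITGAM, CSF3R and MPO were listed at 0 in all 4 libraries, and only CD68, which other cells also express, was above 0. Endothelial markers were listed at 0, as were 4 of 5 fibroblast markers, the other being COL1A1 at 1.96 to 2.62 log2 TPM.

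The C-terminal calcium loop is shown for 9 of the genes because it is a feature that most of the 10 share and from which S100A10 and S100A14 depart. It was read from the coding sequence of the canonical GENCODE 44 transcript as 12 codons with aspartate codons at positions 1 and 5, an asparagine codon at position 3 and a glutamate codon at position 12. This loop was found once in 8 of the 10 genes. Capitals mark the codons that match at those 4 positions.
S100A11: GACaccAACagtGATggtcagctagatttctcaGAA
S100A2: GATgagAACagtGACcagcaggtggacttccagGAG
S100A6: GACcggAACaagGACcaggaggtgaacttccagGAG
S100A16: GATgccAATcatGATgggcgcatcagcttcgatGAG
S100A9: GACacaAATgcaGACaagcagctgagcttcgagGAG
S100A8: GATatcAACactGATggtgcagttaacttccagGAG
S100P: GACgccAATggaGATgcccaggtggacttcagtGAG
S100A4: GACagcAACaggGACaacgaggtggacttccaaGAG
S100A10: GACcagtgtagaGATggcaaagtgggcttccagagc
S100A10 matched at 2 of the 4 positions, with the asparagine and glutamate codons replaced. S100A14 had no window in the later part of its coding sequence that matched at more than 1 position, so no stretch is shown for it. The coding sequences of the 10 genes are 273 to 345 nt long, stop codon included, shortest in S100A6 and longest in S100A9.

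S100A11 was the highest of the 10 genes in every library. This partner of annexin A1 was at 11.52 log2 TPM with SPRR1A and 11.57 with DsRed in stable cells, and at 11.36 with SPRR1A and 11.54 with GFP in transient cells. These levels are 2632 to 3041 TPM, and S100A11 ranked between 32 and 34 among all entities of a library. Its level was similar in all 4 libraries, with the lowest value in transient SPRR1A cells. S100A11 has processed pseudogenes, and the 4 listed in the tables (S100A11P1 to S100A11P4) were at 0 throughout.

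S100A2, a gene of basal and squamous epithelium, was at 10.61 log2 TPM with SPRR1A and 10.70 with DsRed in stable cells, and at 10.22 with SPRR1A and 10.27 with GFP in transient cells. S100A6 (calcyclin), which binds CACYBP and annexin A11, was at 10.34, 10.43, 10.44 and 10.51 in the same order of libraries. The ranges of these genes overlapped, and their order changed, with S100A2 higher in both stable libraries and S100A6 higher in both transient libraries. S100A10, the partner of annexin A2 at the plasma membrane, was at 10.14, 10.28, 9.68 and 9.94 log2 TPM. Its highest value lay below the lowest value of S100A6.

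S100A11, S100A2, S100A6 and S100A10 together made up 91.0% to 91.2% of the summed TPM of the 10 genes. That sum was 7606 TPM with SPRR1A and 8045 with DsRed in stable cells, and 6625 with SPRR1A and 7317 with GFP in transient cells, or 0.662% to 0.804% of the TPM total. S100A11 alone supplied 37.8% to 40.7% of the sum.

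S100A16 and S100A14, epithelial genes whose products are known to bind each other, followed in that order. S100A16 was at 8.67 log2 TPM with SPRR1A and 8.68 with DsRed in stable cells, and at 8.43 with SPRR1A and 8.58 with GFP in transient cells, and S100A14 was at 7.46, 7.51, 7.51 and 7.65. S100A14 had the narrowest range of the 9 genes above the floor apart from S100A6, 0.20 log2 units against 0.17.

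S100A9 and S100A8 stood far apart although their products form a complex. S100A9 was at 6.14 log2 TPM with SPRR1A and 6.32 with DsRed in stable cells, and at 5.32 with SPRR1A and 5.39 with GFP in transient cells, which is 40.0 to 79.8 TPM. S100A8 was listed at 0 in all 4 libraries, that is at a TPM of 1 or less. Both stable libraries were above both transient libraries for S100A9. S100A12, whose gene lies between those of S100A9 and S100A8, was also listed at 0 throughout.

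S100P and S100A4 were the lowest genes above the floor. S100P, a secreted protein that binds AGER and ezrin, was at 4.04 log2 TPM with SPRR1A and 4.56 with DsRed in stable cells, and at 4.05 with SPRR1A and 4.44 with GFP in transient cells. S100A4 (metastasin), which binds non-muscle myosin heavy chain MYH9, was at 4.24, 3.66, 3.06 and 3.34, or 8.31 to 18.8 TPM. Their ranges overlapped, and S100A4 was above S100P in stable SPRR1A cells only. S100A4 had the widest range of all, 1.18 log2 units, followed by S100A9.

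**Figure D1:**
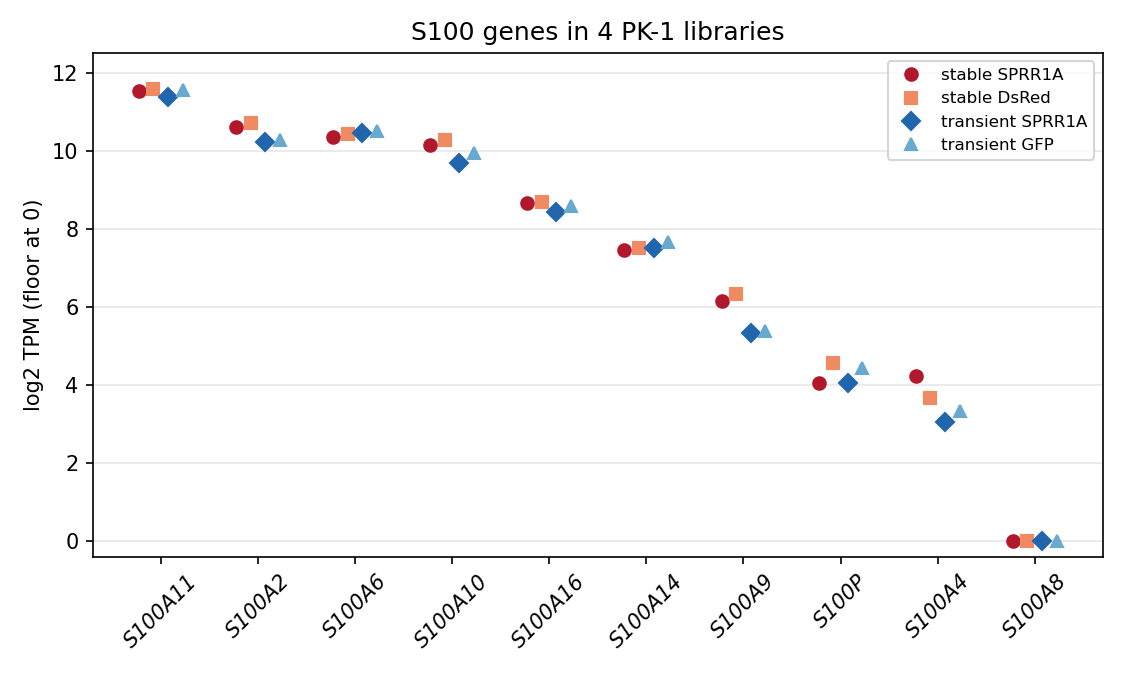
Log2 TPM of the 10 S100 genes (vertical axis, floor at 0) in the 4 libraries, 1 point per gene and library, with genes in order of mean level. S100A11 lies above 11 in every library and S100A8 on the floor in all, and the points of S100A9 split between stable and transient libraries.

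In the stable model, no S100 gene differed by 2-fold between SPRR1A and DsRed cells. Of all entities 0.234% passed that threshold, and of well expressed entities 0.0915%. Of the 9 genes above the floor, 8 had a value below 0 and 1 above, with a median log2 difference of -0.09. Among 9835 well expressed entities the median was 0.06, the SD 0.17 and the share below 0 was 35.6%. Apart from S100P, the negative values ran from -0.01 in S100A16 to -0.18 in S100A9.

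S100A4 and S100P lay outside the central 95% of well expressed entities in the stable model, which ran from -0.27 to 0.41. S100A4 was 1.49-fold higher in SPRR1A than in DsRed cells (log2 difference 0.58). S100P was 1.42-fold lower in SPRR1A cells (log2 difference -0.51). Neither reached 1.5-fold, a lower threshold that 0.590% of well expressed entities passed. Both are low beside the other S100 genes above the floor.

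In the transient model, no S100 gene differed by 2-fold between SPRR1A and GFP cells either. The share past it was 0.227% of all and 0.0591% of well expressed entities. All 9 genes above the floor had values below 0, from -0.05 in S100A2 to -0.39 in S100P, with a median of -0.16. The same held for 94.1% of 10154 well expressed entities, whose median was -0.18. The common direction was not kept under other scalings. When the TPM total was taken without SPRR1A, 4 of the 9 (S100A2, S100A6, S100A9 and S100A14) had values above 0, and the median of all 10 genes, with S100A8 counted at 0, went from -0.15 to -0.0027. After centring on the median of well expressed entities it was 0.02. On that centred scale, 6 of the 9 were above and 3 below, namely S100P (-0.21), S100A4 (-0.10) and S100A10 (-0.08). No member lay outside the central 95% of well expressed entities, -0.43 to 0.07, and none reached 1.5-fold, as 0.591% of those entities did.

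Values from both models were set side by side, first for S100P, S100A4 and S100A10, which had the largest differences in the transient model. S100P was lower in SPRR1A cells in both, by a log2 difference of -0.51 and -0.39, or -0.57 and -0.21 relative to the median of well expressed entities. S100A4 was higher in the stable and lower in the transient SPRR1A library, by 0.58 and -0.28. These signs, but not the sizes, were kept under each scaling tried. Relative to the median of well expressed entities the values were 0.52 and -0.10. S100A10 was lower in both, by -0.14 and -0.27, or -0.20 and -0.08 relative to that median. On the deposited scale, every gene above the floor except S100A4 was lower with SPRR1A in both models. Of well expressed entities, 35.6% had a value below 0 between the stable libraries and 94.1% between the transient ones. The share of entities lower in both models was not counted. Relative to the median of well expressed entities, 7 of the 9 genes had opposite signs in the models. Both SPRR1A libraries lay below both control libraries for S100P, S100A11 and S100A14, a pattern found in 9.92% of the 9658 entities at 5 TPM or more in every library. For S100A11 and S100A14 the transient differences relative to the median were 0.00 and 0.04, that is, not below it. No member had both SPRR1A libraries above both controls, as 0.580% of those entities had.

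**Figure D2:**
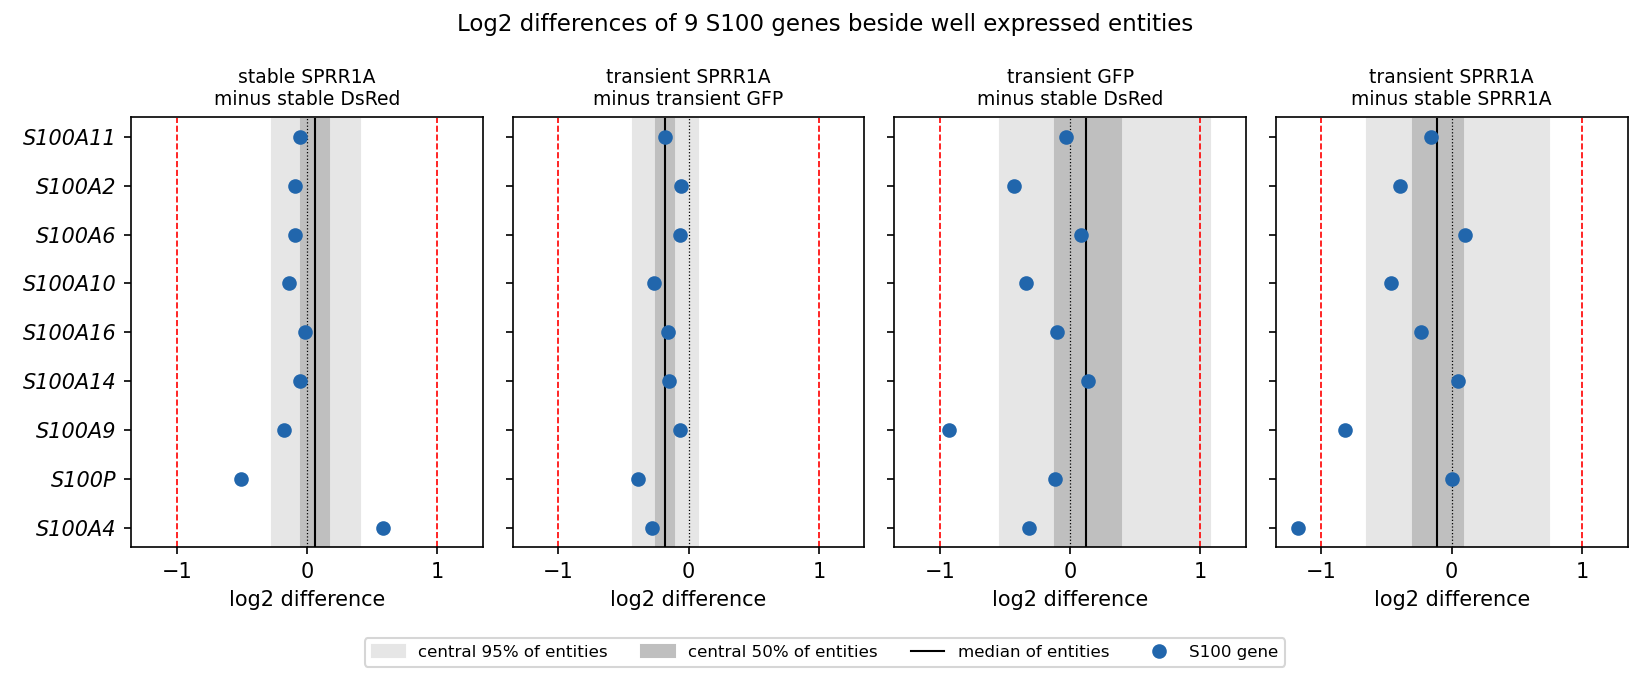
Log2 difference (horizontal axis) of the 9 S100 genes above the floor in 4 comparisons of libraries, with 1 point per gene, the median (black line), the central 50% (dark grey) and the central 95% (light grey) of well expressed entities, 0 (dotted) and the 2-fold threshold (red dashes). Only S100A4 in transient against stable SPRR1A cells is past the threshold, and S100A9 is far to the left in both comparisons of transient with stable libraries.

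The transient and stable libraries differed more than SPRR1A and control within a model, with an SD of the log2 differences of well expressed entities of 0.42 and 0.36 against 0.17 and 0.19. Between the controls, the log2 difference of S100A9 was -0.93 (transient GFP minus stable DsRed), a 1.91-fold lower level, which did not reach 2-fold. Of well expressed entities 3.46% passed 2-fold, 0.245% in the lower direction, and of all entities 1.92%. S100A9 was the only member past 1.5-fold, which 15.4% of well expressed entities passed (1.90% in the lower direction), and the only one outside their central 95%. Relative to the median of those entities, 0.12, S100A9 was at -1.06, which is past 2-fold, so that this call depends on the centring. S100A2 (-0.43), S100A10 (-0.34) and S100A4 (-0.32) were also at negative values, and S100A14 (0.14) and S100A6 (0.08) at positive ones, of which S100A6 changed sign after centring. The median of the 9 genes was -0.12.

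Between the SPRR1A libraries of the models, S100A4 was 2.27-fold lower in transient cells (log2 difference -1.18), and it was the only member past 2-fold. Of well expressed entities 1.39% passed, 0.274% in the lower direction, and of all entities 0.903%. S100A4 and S100A9 (log2 difference -0.82) were past 1.5-fold, as 7.74% of well expressed entities were (3.80% in the lower direction). S100A10 was at -0.46 and S100A2 at -0.39, whereas S100A6 (0.11), S100A14 (0.05) and S100P (0.00) had values near 0. The median of the 9 genes was -0.24, beside -0.11 over 9843 well expressed entities. S100A4 and S100A9 lay below the central 95% of those entities, -0.65 to 0.74. These 4 comparisons use the same 4 libraries, so they are not independent of each other.

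Both stable libraries lay above both transient ones for S100A2, S100A4, S100A9, S100A10 and S100A16. This is 5 of the 9 genes, and 31.6% of the entities at 5 TPM or more in every library had that order. S100A6 had the opposite order, as 30.2% of the entities did.

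Genes of other programs moved between the models at the same time as S100A9. Of 10 interferon response genes, 9 were above 0, and their summed TPM was 423 and 449 in the stable and 1149.8 and 1287 in the transient libraries. IFIT1, IFIT2, IFIT3, ISG15 and OAS2 were past 2-fold higher in transient than in stable cells in both comparisons, and MX1 was at 0. Of 5 squamous markers, whose summed TPM was 832 to 1356, DSG3 and TP63 were past 2-fold higher in transient GFP than in stable DsRed cells (log2 differences 1.52 and 1.02), with KRT5 at 0.71, IVL at -0.07 and KRT14 at -0.17. Between the SPRR1A libraries none of the 5 passed 2-fold, with DSG3 at 0.75, TP63 at 0.43, KRT14 at 0.80, KRT5 at 0.16 and IVL at -0.46. KRT14 was past 2-fold lower in stable SPRR1A than in stable DsRed cells, at 1.03 and 2.04 log2 TPM. The myeloid marker CD68 went from 3.99 in stable DsRed to 4.89 in transient GFP cells, opposite to S100A9, while the other 5 myeloid markers were at 0. The part of any of these in the S100 values was not tested.

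Some of the S100 genes sit on either side of SPRR1A on chromosome 1. In GRCh38 by GENCODE 44, S100A10 (from 151982915 to 151993859) and S100A11 (from 152032506 to 152047907) have their start sites at -990.2 and -947.1 kb from that of SPRR1A. S100A9 (from 153357854 to 153361023) begins 373.8 kb after it, and S100A8 (from 153390032 to 153391073), S100A6 (from 153534599 to 153536244), S100A4 (from 153543613 to 153550136), S100A2 (from 153561108 to 153567890), S100A16 (from 153606886 to 153613145) and S100A14 (from 153614255 to 153616986) follow. S100P lies apart, on chromosome 4 from 6693878 to 6697170. The annotated span of S100A4 overlaps that of its neighbour S100A3 (from 153547329 to 153549258) on the same strand. The canonical S100A4 transcript starts at 153545806 on the minus strand and so lies outside S100A3. Overlap of exons was not examined. By annotated span, S100A11 and S100A6 each overlap an antisense gene known by identifier only. The libraries were stranded, but the use of strand in the alignment is not given in the sources used here.

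Level did not follow position in a simple way. S100A4 and S100A6 start 561.7 and 551.9 kb from SPRR1A, and S100A6 was among the highest and S100A4 had the lowest mean of the genes above the floor, while S100A9, S100A12 and S100A8 begin between 373.8 and 407.0 kb and only S100A9 was above the floor. Of 15 genes of the epidermal differentiation complex, SPRR1A included, 10 were at 0 in all libraries. Most entities were at 0 as well, since 12964 to 13558 of 53826 were above the floor in a library. The share of all entities at 0 in every library was not counted. SPRR1B, a paralog of SPRR1A, was at 6.50 with SPRR1A and 6.55 with DsRed in stable cells, and at 8.10 with SPRR1A and 8.27 with GFP in transient cells. It was past 2-fold higher in transient cells (log2 differences 1.72 between controls and 1.60 between SPRR1A libraries).

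**Figure D3:**
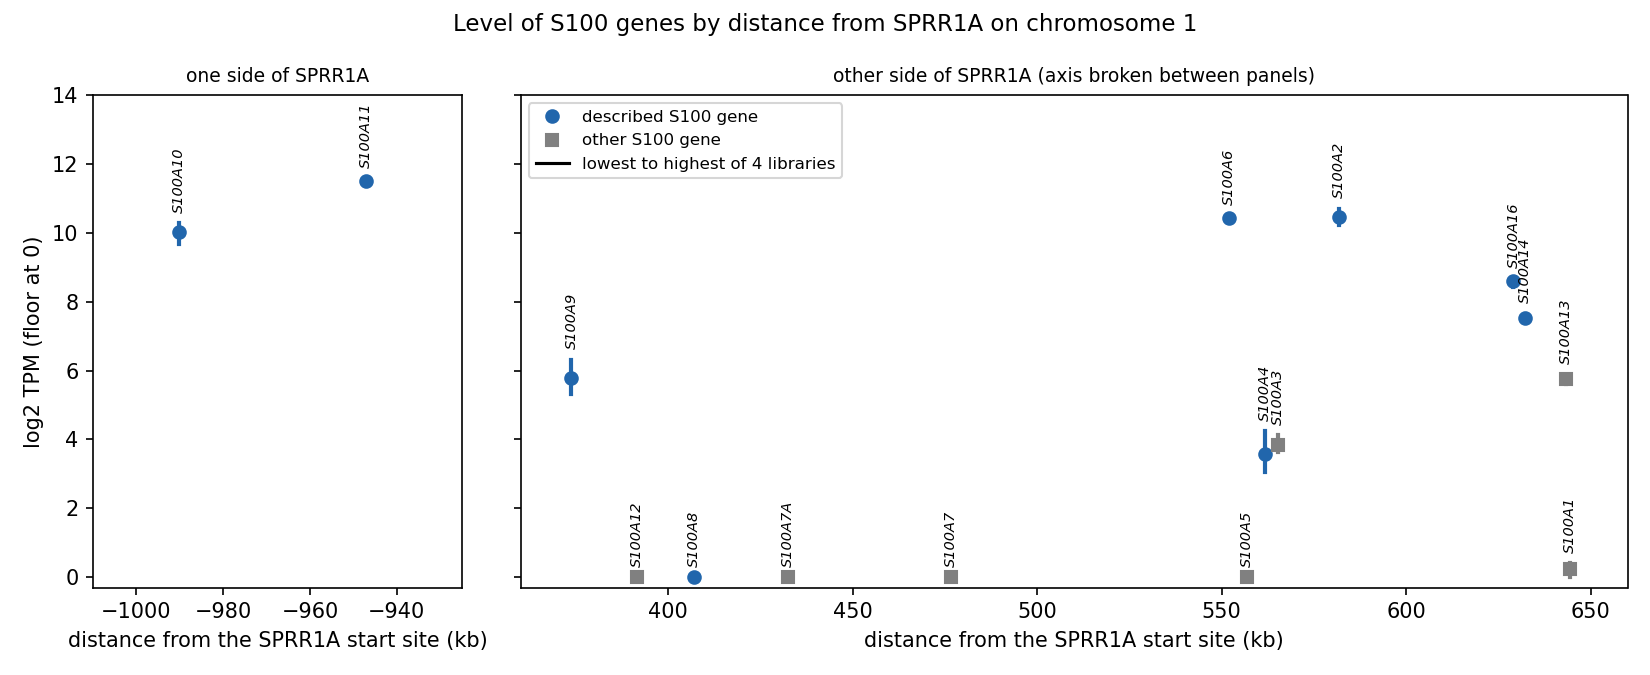
Mean log2 TPM over the 4 libraries (vertical axis, floor at 0) of S100 genes on chromosome 1 by the distance of their start from the SPRR1A start in kb, with bars from the lowest to the highest library, circles for the genes described and squares for other S100 genes. S100A12, S100A8, S100A7A, S100A7 and S100A5 lie on the floor between S100A9 and S100A4, and the highest genes are S100A11 and S100A10 on one side of SPRR1A and S100A2 and S100A6 on the other.

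The promoters of S100A9 and S100A8 are shown because only S100A9 of this pair was above the floor. They are the 250 bases before the start site from RefSeq (GRCh38 patch 14), which also holds a promoter for each of the other 8 genes. It holds 3 promoters for S100A8 and 2 each for S100A2 and S100A16. For each gene only the promoter nearest the start of the canonical transcript was searched, whereas the shares over all promoters count every one. Capitals mark TATAAA and GGGCGG (or CCGCCC, its reverse complement), both searched on both strands.
S100A9, chr1:153357604-153357853, plus strand: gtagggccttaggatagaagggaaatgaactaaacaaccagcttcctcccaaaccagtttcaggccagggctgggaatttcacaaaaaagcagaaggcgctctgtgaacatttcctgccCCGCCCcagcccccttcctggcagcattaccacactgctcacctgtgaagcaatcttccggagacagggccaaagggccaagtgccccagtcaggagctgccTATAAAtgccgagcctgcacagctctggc
S100A8, chr1:153391074-153391323, minus strand: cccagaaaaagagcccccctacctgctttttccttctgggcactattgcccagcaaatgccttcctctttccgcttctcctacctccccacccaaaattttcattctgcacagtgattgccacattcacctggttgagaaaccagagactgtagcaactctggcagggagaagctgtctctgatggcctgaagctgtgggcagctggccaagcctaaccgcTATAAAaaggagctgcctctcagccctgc
TATAAA lies 29 bases before the start in both, and GGGCGG was found in S100A9 and not in S100A8 in this window. TATAAA was present in 4 of the 10 promoters, those of S100A4, S100A8, S100A9 and S100P, and in 10.7% of 35116 promoters. GGGCGG was present in S100A6, S100A9, S100A10 and S100A11, and in 42.6% of all promoters. TGANTCA, the letters of an AP-1 site, was present in S100A2 alone, and in 6.57% of all promoters. The GC content was highest in S100A10 (71.2%) and S100A6 (70.0%) and lowest in S100A8 (53.2%), with a median of 58.0% over all promoters.

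The other 10 S100 genes were nearly silent apart from S100A13 and S100A3. S100A13, a mediator of the release of growth factors without a signal peptide, was at 5.61 log2 TPM with SPRR1A and 5.64 with DsRed in stable cells, and at 5.83 with SPRR1A and 5.88 with GFP in transient cells. S100A3, known from the hair cuticle, was at 3.93, 4.12, 3.65 and 3.63. S100A1 was between 0 and 0.41, and S100A5, S100A7, S100A7A, S100A12, S100B, S100G and S100Z were listed at 0 in all libraries. None of the 10 was past 2-fold in any of the 4 comparisons. The annotated span of S100A13 overlaps that of S100A1 on the other strand. Of 7 S100 fused-type genes, which join an S100 domain to long repeats of the cornified layer, only TCHH was above 0, at no more than 0.53.

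Partner genes were more stable than the most variable S100 genes. Of 17 partners and targets, 16 were above 0 in all libraries, ANXA6 was at 0, and none was past 2-fold in any comparison. ANXA2 exceeded S100A10 in level by 1.68 to 1.98 log2 units in every library. ANXA2 was at 11.97 log2 TPM with SPRR1A and 11.96 with DsRed in stable cells, and at 11.66 with SPRR1A and 11.81 with GFP in transient cells. It was lower in the transient libraries, as S100A10 was.

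ANXA1 was below S100A11 in level, with differences of -2.33 to -1.84 log2 units. ANXA1 was at 9.35, 9.24, 9.52 and 9.66 log2 TPM, higher in the transient libraries, whereas S100A11 had its lowest value in one of them. For S100A6, the difference of CACYBP from it was -3.92 to -3.42 log2 units, and that of ANXA11 was -3.32 to -2.81. The ezrin gene EZR was above S100P by 3.80 to 4.32 log2 units, and MYH9 was above S100A4 by 4.73 to 5.91.

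BSG was the highest in every library of a list of 8 genes set up for receptors of secreted S100 proteins. BSG (basigin), a receptor for S100A9, was at 8.72 log2 TPM with SPRR1A and 8.76 with DsRed in stable cells, and at 8.61 with SPRR1A and 8.75 with GFP in transient cells. AGER, the receptor of S100P and other members, was at 1.56, 1.87, 1.77 and 1.82. TLR4, which binds calprotectin, was at 2.32, 2.06, 1.27 and 1.74, and it was past 2-fold lower in transient than in stable SPRR1A cells (log2 difference -1.05) at under 5 TPM. ALCAM was between 4.25 and 4.98 and MCAM between 1.13 and 1.96. CD36 was above 0 in stable DsRed cells only (0.12), and EMCN and ERBB4 were at 0. EMCN is on the list, but binding of S100 proteins is not claimed for it here.

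The entities closest in pattern to S100A9 and S100A4, the members with the widest range, were sought among 9656 other entities at 5 TPM or more in every library. Likeness was the largest gap in any of the 4 libraries after each entity's own mean was subtracted. For S100A9 the closest were SRM, the spermidine synthase (gap 0.04), KCNF1, a potassium channel subunit (0.06), and CAMKK1, a calcium-dependent kinase kinase (0.06), and 20 entities lay within 0.1. For S100A4 they were SNORD52, a small nucleolar RNA (0.12), SLC39A10, a zinc transporter (0.12), and EPB41L2, a membrane skeleton protein (0.13), with 0 entities within 0.1. With 4 libraries such likeness is a description only.

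**Figure D4:**
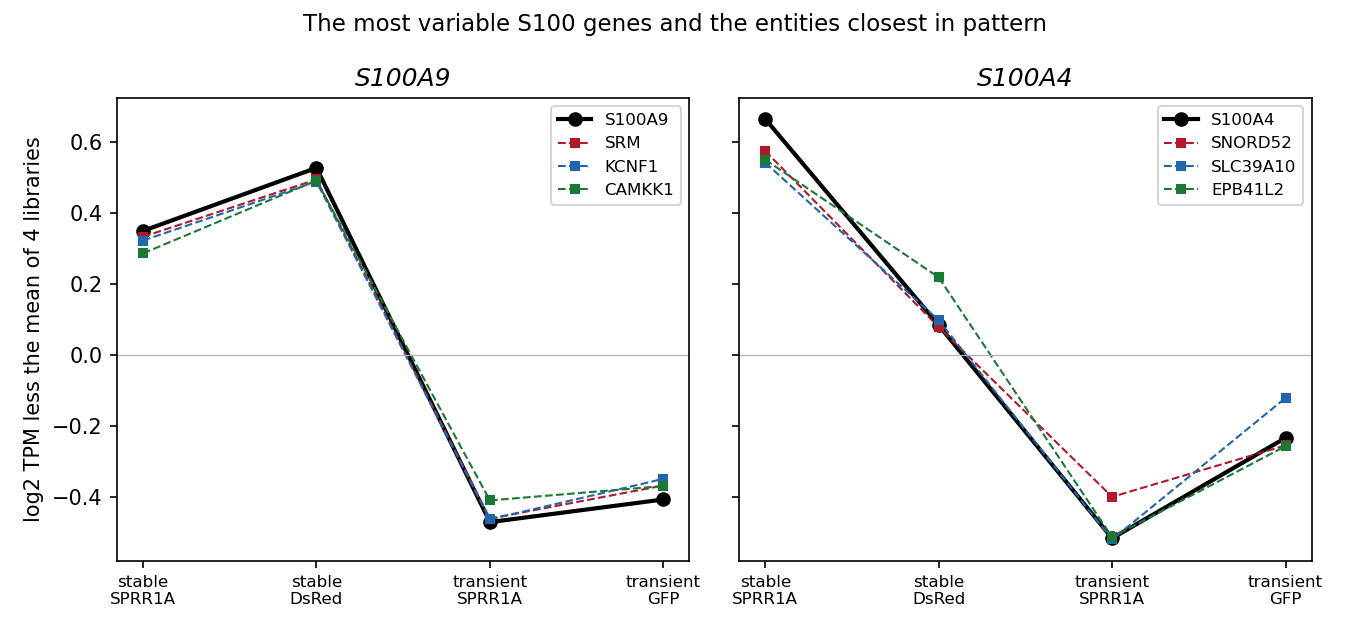
Log2 TPM less the mean over 4 libraries (vertical axis) in each library (horizontal axis) for S100A9 and S100A4 (black) and for the 3 entities closest to each in pattern (dashed). S100A9 and its closest entities drop from the stable to the transient libraries with little difference between SPRR1A and control, and S100A4 is highest in stable SPRR1A cells.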

How the data were processed

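RNA of 4 PK-1 libraries, 1 per condition, was sequenced in paired-end mode from stranded mRNA libraries. The authors used Strand NGS with its defaults to map reads onto hg38 transcripts, and the log2 TPM of each gene was deposited. The software version, the annotation release and the treatment of multi-mapping reads are not given in the sources used here. Depth is unknown.

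Log2 differences were computed from the deposited log2 values for 4 comparisons of libraries. A difference above 1 or below -1 (2-fold) was called, and 1.5-fold was used as a description. No test was made: each condition has 1 library, and the stable and transient models, which differ in vector and control, were not treated as replicates of each other. Well expressed means 5 TPM or more in each library compared. Alternatives were log2(TPM + 1), log2(TPM + 0.1), centring on the median of well expressed entities, SPRR1A left out of the TPM total, and the TPM filter. The members and lists were chosen with earlier results of these data known. The genes named are the 10 members, other S100 genes above 0, list genes described by role or past 2-fold, and the 3 entities closest to each of the 2 most variable members. List genes at 0, marker genes and S100A11 pseudogenes were named after their values were seen. LORICRIN is listed under an older symbol. The calling step was tested on simulated data, with changes larger than the threshold and a smaller spread than in these data. That test checks how the step is written, and it does not measure how reliable a call is here. Python 3.11.15, numpy 2.4.6, pandas 2.3.3 and matplotlib 3.10.9 were used.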

Additional observations from a re-analysis of the deposited data

Results flagged for a closer look

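S100A4 had opposite signs in the 2 models. Its log2 difference was 0.58 between stable SPRR1A and stable DsRed cells and -0.28 between transient SPRR1A and transient GFP cells. With 1 library per condition, this difference was not tested. On the deposited scale S100A4 was the only one of the 9 genes above the floor with opposite signs. Relative to the median of well expressed entities its values were 0.52 and -0.10, and 7 of the 9 had opposite signs on that scale (S100A4 with S100A2, S100A6, S100A9, S100A11, S100A14 and S100A16). When the TPM total was taken without SPRR1A, 5 did (S100A4 with S100A2, S100A6, S100A9 and S100A14). S100A4 was the only one of them that was positive in the stable model.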

How the results depend on the processing

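No fit that pairs SPRR1A with control over the 2 models was made. Centring on the median of well expressed entities moved the number of S100 genes past 2-fold between the controls from 0 to 1, namely S100A9 (log2 difference -1.06 in place of -0.93). Every other member difference stayed on its side of the 2-fold threshold under log2(TPM + 1), log2(TPM + 0.1), centring and SPRR1A left out of the total. For S100A4 between the SPRR1A libraries the alternatives gave -1.03 to -1.17. In the transient model the values of 6 of the 9 genes above the floor changed sign with centring and 4 with SPRR1A left out. The median of the 10 genes reversed there, from -0.15 to 0.016 with centring, and was -0.0027 with SPRR1A left out. Centring moved it from -0.07 to -0.13 in the stable model, from -0.11 to -0.23 between the controls and from -0.20 to -0.082 between the SPRR1A libraries, where it was -0.049 with SPRR1A left out. Requiring 5 TPM or more in each library compared changed no count of members, but lowered the number of entities past 2-fold from 126 to 9 in the stable model, from 122 to 6 in the transient model, from 1035 to 339 between the controls and from 486 to 137 between the SPRR1A libraries, by leaving out low entities. The order of the genes within a library cannot change when SPRR1A is left out. A value of 0 for S100A8 does not separate a low level from none.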
